A study of Mus musculus with 7 samples.

Results

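The promoters of the cytoplasmic ribosomal protein genes were examined in ATAC-seq peak lists of mouse cells on the way from fibroblasts to induced pluripotency. The genes are the protein-coding genes of the GENCODE M21 annotation of mm10 whose symbol is Rpl or Rps followed by a number, with an a, x or l where the symbol has one, together with Rplp0, Rplp1 and Rplp2. S6 kinase genes and pseudogenes were left out. This gave 79 genes out of 21938 protein-coding genes, 49 for proteins of the large subunit, stalk included, and 30 for the small subunit. They lie on 19 chromosomes, 4 of them on chromosome X, and 28 hold a snoRNA gene within their bounds.

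The ribosome is built of a large and a small subunit, each a scaffold of ribosomal RNA clothed in proteins, most of which are needed in equal numbers. The genes of these proteins are transcribed in practically every growing cell, and they are a textbook case of housekeeping promoters. Many start transcription at a C inside a run of pyrimidines, so that the mRNA opens with a terminal oligopyrimidine (TOP) tract through which translation responds to growth signals. ETS family factors such as GABP, YY1 and SP1 are known to bind promoters of this family. ATAC-seq cuts accessible DNA with the Tn5 transposase, and a peak is a stretch where cuts pile up above the local background.

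The starting cells were mouse embryonic fibroblasts (MEFs) with the doxycycline-driven tetO-Pou5f1,-Klf4,-Sox2,-Myc cassette in Col1a1 and the rtTA*M2 transactivator in ROSA26. They were taken before induction (Day 0, no doxycycline) and after 1, 2, 3, 6 and 9 days of doxycycline at 2 µg/ml. A library of untreated Bruce-4 embryonic stem cells (ESCs), for which the labels enter the same genotype as for the MEFs, completed the 7 libraries. Per the study's methods, the MEFs came from mid-gestation embryos without head, heart and liver. Each group is 1 library, so there is no replicate error for any value below, no test between libraries was made, and intervals are exact (Clopper-Pearson) 95% binomial intervals that cover counting error only. The lists held between 27074 (ESCs) and 61241 (Day 0) peaks, none under 200 bp wide. They carry no score, and the authors brought all libraries to 1 common depth that is not given in the sources used here, so the reads behind a peak are unknown. As a minority of induced cells reaches pluripotency, the later libraries are mixtures of cells, and the medium changed with the stage. Per the same methods, reprogramming cells were moved to ESC medium with LIF once the first colonies appeared, so that medium and stage cannot be told apart. Those methods do not state the medium of the ESCs. In these bulk libraries a weaker opening in every cell and an open promoter in fewer cells cannot be told apart.

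The labels were set against marker genes by the same count of peaks near the start. Of 11 fibroblast markers, 9 had a peak at Day 0 and 3 (Twist1, Fn1 and Snai2) in the ESC library. Of 11 ESC markers, 2 (Zfp42 and Fgf4) had a peak in the ESC library and 4 at Day 0, and the starts of the defining genes Nanog, Pou5f1 and Sox2 had none in the ESC library. The ESC library is called ESCs here as its label does. The endothelial genes Pecam1 and Cdh5 had no peak in any library. Of the blood genes, Spi1 had one at Day 0 alone and Ptprc had none in any library. Of the neural genes, Tubb3 had one in each library and Sox10 had none in any.

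Stretches of 100 bases around the annotated start are shown for 8 genes whose peaks carry the account that follows. Each runs 5′ to 3′ on the strand of the gene, with the start at base 81, and was read from the mm10 sequence. Capitals mark matches on either strand to the 6 motifs named further on, and the run of at least 5 pyrimidines through the start where there is one. Rps6 (chr4:86857393-86857492, minus strand) and Rpl11 (chr4:136053374-136053473, minus strand) are shown as promoters with a steady peak and an ETS match, at bases 35 to 40 and 87 to 92. Rpl10 (chrX:74270780-74270879, plus strand) and Rpl4 (chr9:64173295-64173394, plus strand) are shown for pyrimidine runs of 13 and 14 bases through the start. The start base is a T in Rpl10 and a C in Rpl4, so Rpl4 alone has the C start of a TOP mRNA. Peaks of both genes mostly missed the start.
Rps6: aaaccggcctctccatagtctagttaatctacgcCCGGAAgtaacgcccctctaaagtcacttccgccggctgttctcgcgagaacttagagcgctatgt
Rpl11: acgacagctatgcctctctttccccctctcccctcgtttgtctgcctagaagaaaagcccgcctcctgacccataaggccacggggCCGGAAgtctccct
Rpl10: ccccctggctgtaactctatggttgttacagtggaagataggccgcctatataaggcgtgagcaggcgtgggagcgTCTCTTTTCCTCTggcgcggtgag
Rpl4: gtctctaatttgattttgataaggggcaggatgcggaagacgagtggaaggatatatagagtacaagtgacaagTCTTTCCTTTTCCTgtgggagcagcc

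Rps19 (chr7:24884291-24884390, plus strand) had among the widest peaks of the family, while Rps25 (chr9:44407059-44407158, plus strand) had none, although both stretches hold an SP1 match. Rpl3 (chr15:80083387-80083486, minus strand) and its muscle paralog Rpl3l (chr17:24727740-24727839, plus strand) are set side by side as a promoter with a peak in each library and one without any. In the 300 bp around the start, the observed over expected CpG ratio was 1.12 for Rpl3 and 0.09 for Rpl3l. The other genes without any peak were not as low, with 0.64 for Rpl10l, 0.84 for Rpl39l, 0.82 for Rps25 and 0.55 for Rps14.
Rps19: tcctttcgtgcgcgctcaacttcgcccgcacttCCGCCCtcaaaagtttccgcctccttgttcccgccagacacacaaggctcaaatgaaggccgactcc
Rps25: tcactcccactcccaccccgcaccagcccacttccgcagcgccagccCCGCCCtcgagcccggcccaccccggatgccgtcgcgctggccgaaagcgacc
Rpl3: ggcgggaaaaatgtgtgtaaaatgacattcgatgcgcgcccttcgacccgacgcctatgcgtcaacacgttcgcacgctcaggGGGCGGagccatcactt
Rpl3l: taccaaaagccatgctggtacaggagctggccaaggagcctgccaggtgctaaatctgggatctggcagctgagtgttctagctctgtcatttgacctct

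To see how constant the accessibility of this family was, a gene was counted as having a peak when at least 1 bp of a peak lay within 1000 bp of the start of its principal transcript. Nearly all ribosomal protein genes had a peak in each MEF-derived library, and fewer had one in ESCs. The count was 74 of 79 at Day 0 (93.7%, interval 85.8 to 97.9%), where 55.1% of all protein-coding genes had a peak. It was 72 on Day 1 (91.1%) against 51.3% of all genes, and 72 on Day 2 (91.1%) against 47.5%. The family thus kept almost its full count on the day when the share over all genes was the lowest of the MEF-derived libraries. On Day 3 it was 73 (92.4%) against 52.1%, on Day 6 it was 74 (93.7%) against 53.1%, and on Day 9 it was 73 (92.4%) against 49.3%. In ESCs 60 genes had a peak (75.9%, interval 65 to 84.9%) against 46.3% of all genes.

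A peak in each of the 7 libraries was present for 59 of the 79 genes (74.7%, interval 63.6 to 83.8%), against a share of 39% of all protein-coding genes. Only 5 genes had no peak in any library, or 6.33%, whereas 39.4% of all protein-coding genes had none. The other 15 genes split into a few patterns. For 12 of them the ESC library alone was missing. Rpl36 was without one on Day 1 and in the ESC library, and Rpl19 had a peak at Day 0 and on Day 6 alone. By subunit, 46 of 49 large-subunit genes and 28 of 30 small-subunit genes had a peak at Day 0, and 36 and 24 had one in ESCs.

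**Figure D1:**
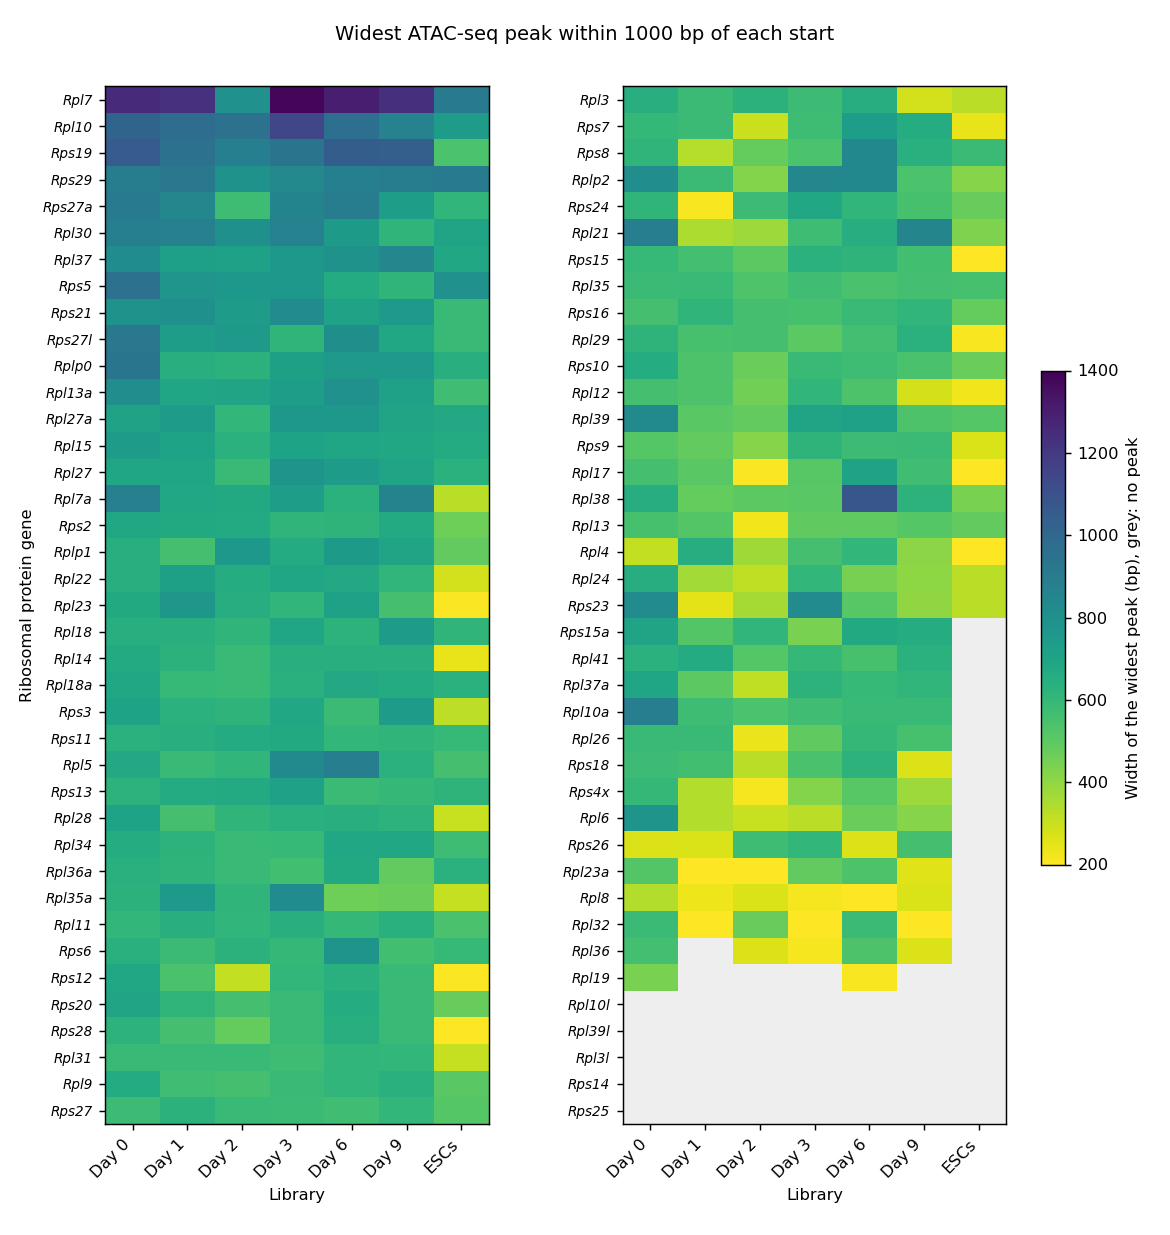
Width in bp of the widest peak within 1000 bp of the start (colour) for 78 of the 79 ribosomal protein genes (rows) in the 7 libraries (columns), ordered by the number of libraries with a peak and then by median width, with grey for no peak. The 59 genes with a peak in each library come first, the grey cells of the 12 genes that lacked only the ESC peak stand in the last column, and the 5 genes without any peak lie at the foot of the right panel.

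The stalk proteins, which recruit the translational GTPases to the large subunit, had a peak across the start in each library. Rplp0, the base of the stalk, had peaks of 933 bp at Day 0, 642, 628, 717, 751 and 754 bp on Days 1, 2, 3, 6 and 9, and 646 bp in ESCs. Rplp1 ran from 490 bp in ESCs to 758 bp on Day 2, and Rplp2 from 416 bp in ESCs to 843 bp on Day 3. The Day 0 peak was thus the widest for Rplp0, but not for its dimeric partners, and the ESC peak was the narrowest for Rplp1 and Rplp2.

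Rpl5 and Rpl11, which travel with the 5S RNA and bind Mdm2 when ribosome assembly fails, also kept a peak over the start in each library. For Rpl11 the width was 606 bp at Day 0, 647, 609, 644, 601 and 638 bp on Days 1, 2, 3, 6 and 9, and 545 bp in ESCs. For Rpl5 it was 676 bp at Day 0, 585, 608, 829, 887 and 632 bp on the following days, and 555 bp in ESCs. Rpl11 thus stayed within about 100 bp throughout, and the peaks of Rpl5 were the widest on Days 3 and 6. Rps6, the target of the S6 kinases, had widths of 637, 580, 631, 603, 779 and 564 bp from Day 0 to Day 9 and 596 bp in ESCs. With 1 library per day, none of these steps can be set against replicate spread.

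The widest peaks, by the median over the libraries, belonged to Rpl7 (1237 bp), Rpl10 (963 bp), Rps19 (948 bp), Rps29 (891 bp) and Rps27a (846 bp). Rps19, a protein of small-subunit maturation that is often mutated in Diamond-Blackfan anaemia, had peaks of 1052, 948, 884, 940, 1045 and 1035 bp from Day 0 to Day 9 and of 539 bp in ESCs. The ESC peak of Rps19 was narrower than each of the others by over 300 bp. Rpl7 peaks reached from 794 bp on Day 2, when a separate peak of 327 bp lay beside it, to 1377 bp on Day 3, and the ESC peak was 906 bp wide. Rps29 had almost the same width in ESCs (900 bp) as at Day 0 (898 bp), and its range over all libraries was 787 to 919 bp. Rps27a, made as a fusion with ubiquitin, ran from 571 bp on Day 2 to 911 bp at Day 0.

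The narrowest, among the genes with a peak in each library, were Rps23 (399 bp), Rpl24 (403 bp), Rpl4 (408 bp), Rpl13 (493 bp) and Rpl38 (508 bp). Rps23, which sits at the decoding centre, showed 822 and 819 bp at Day 0 and on Day 3 but 249 bp on Day 1, where a peak of 205 bp lay beside it. Rpl38, known for its part in the translation of Hox mRNAs, had more than 1 peak in its window in 4 libraries, as no other member did. On Day 6 its peak was a single block of 1079 bp, while at Day 0 it was 654 bp with a separate peak of 221 bp. More than 1 peak was otherwise rare, in 2 (Day 6) to 7 (Day 2) of the windows with a peak, that is, 2.7 to 9.72% of them, against 9.57 to 13.1% over all protein-coding genes with a peak.

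As to width, the family resembled other promoters in the MEF-derived libraries and was narrower in ESCs. The median of the widest peak per gene was 654 bp at Day 0, 588, 582, 608, 636 and 610 bp on Days 1, 2, 3, 6 and 9, and 488 bp in ESCs. Over all protein-coding genes with a peak the medians were 675, 621, 583, 635, 651, 608 and 538 bp in the same order. The quartiles in ESCs were 306 and 599 bp, where they were 601 and 771 bp at Day 0. A widest peak under 300 bp was found for 1 gene at Day 0 and for 13 in ESCs, of which 4 were at the 200 bp minimum. Ranked among all peaks of its own library, the median gene of the family stood at the 84.7 percentile at Day 0 and the 63.7 percentile in ESCs. The median protein-coding gene with a peak stood at 86.6 and 71.6.

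**Figure D2:**
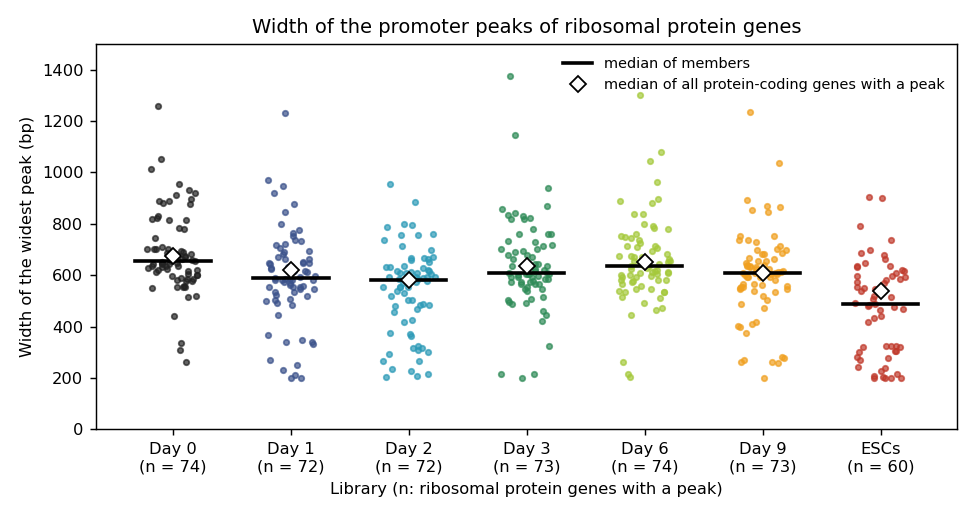
Width in bp of the widest peak within 1000 bp of the start for each ribosomal protein gene with a peak (points, spread sideways for visibility) in each library, with the median of these genes (bar) and of all protein-coding genes with a peak (diamond). The median is 654 bp at Day 0 and 488 bp in ESCs, where a group of points lies between 200 and 326 bp.

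To compare each gene between libraries, peaks present at Day 0 were looked for in the other libraries. Of the 74 genes with a Day 0 peak, 2 lacked one on Day 1 (2.7%, interval 0.329 to 9.42%), against 10.2% of all protein-coding genes with a Day 0 peak. On Day 2 it was again 2 (2.7%) against 15.8%, and on Day 3 it was 1 (1.35%) against 9.38%. On Day 6 none was missing (0%, interval up to 4.86%) against 8.09%, and on Day 9 it was 1 (1.35%) against 13.3%. Among them were Rpl19 on Days 1, 2, 3 and 9 and Rpl36 on Day 1. In ESCs 14 were missing (18.9%, interval 10.7 to 29.7%), a share close to the 20.8% of all genes. Set against Day 9 instead, 13 of 73 had no ESC peak (17.8%, interval 9.84 to 28.5%), against 14.5%. No member gained a peak in any of these comparisons.

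Where both libraries had a peak, that of the ESCs was the narrower for 59 of 60 genes against Day 0, or 98.3%, while the share was 86% over all protein-coding genes. The exception was Rps29. The median difference, ESCs minus Day 0, was -232 bp for the family and -162 bp for all genes. Against Day 9 the ESC peak was the narrower for 53 of 60 genes (88.3% against 69.7%), with median differences of -122 and -67 bp. By contrast, Day 9 minus Day 0 had a median of -38 bp for the family and -85 bp for all genes. Among the 74 genes with a peak in any library, the ESC library alone held the narrowest peak, or alone none, for 48 (64.9%), against 35.9% of all protein-coding genes with a peak. Day 0 alone held the widest for 32 (43.2%) against 37.5%. The ESC list was also the shortest and the Day 0 list the longest, and the part of list length in these differences was not tested. With the 27074 widest peaks of each library, 70 genes kept a peak at Day 0 and 60 in ESCs. That number is the length of the ESC list, so the ESC count could not change. Genes with a Day 0 peak and no ESC peak went from 14 to 11 under this limit. The share over all protein-coding genes under the same limit is not given here.

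The 12 genes that lacked the ESC peak alone were Rpl10a, Rpl23a, Rpl26, Rpl32, Rpl37a, Rpl41, Rpl6, Rpl8, Rps15a, Rps18, Rps26 and Rps4x. Some had ordinary peaks in the MEF-derived libraries. Rpl41, the smallest protein of the ribosome, had 633 bp at Day 0, 661, 518, 602, 548 and 632 bp on the following days, and its nearest ESC peak lay 1247 bp from the start, just outside the limit. Rps15a had 701 bp at Day 0 and 657 bp on Day 9, and Rpl10a 889 and 593 bp. For these 3 genes the absence in ESCs stood beside peaks of usual width in the MEF-derived libraries. The ESC library is no later day of the doxycycline series.

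Others were narrow in some or all of the MEF-derived libraries. Rpl8, which lies near the peptidyl transferase centre, had peaks of 336 bp at Day 0 and of 229, 267, 216, 203 and 269 bp on Days 1, 2, 3, 6 and 9. Rpl32 alternated between 582, 480 and 581 bp (Day 0, Day 2 and Day 6) and the 200 bp minimum (Days 1, 3 and 9). Rpl23a, a docking site for nascent-chain factors at the exit tunnel, had 519, 488 and 535 bp at Day 0 and on Days 3 and 6, and at most 260 bp on Days 1, 2 and 9. The peaks of these genes, missing in ESCs, thus came near the smallest size the lists contain in some or all MEF-derived libraries. Rps4x, on chromosome X, had 602 bp at Day 0, 338, 216, 421, 514 and 374 bp on the following days and none in ESCs.

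In each MEF-derived library the genes without an ESC peak had the smaller median width. Their median was 585 bp at Day 0 (14 genes) against 662 bp for the 60 genes with an ESC peak, 315 against 592 bp on Day 2, and 417 against 620 bp on Day 9. Over all protein-coding genes the same split gave 493 against 711 bp at Day 0, 321 against 604 bp on Day 2, and 364 against 631 bp on Day 9. The order is thus that of all genes and nothing particular to the family.

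Rpl19 and Rpl36, both of the large subunit, were the least constant genes with any peak. For Rpl19 a peak of 440 bp at Day 0 and one of 214 bp on Day 6, 131 bp from the start, were the only ones called. Rpl36 had 557 bp at Day 0, 265, 216, 537 and 262 bp on Days 2, 3, 6 and 9, with nothing called on Day 1 or for the ESC library.

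Of the 5 genes without any peak, 3 are paralogs used in particular tissues. Rpl10l and Rpl39l are known from the testis, where Rpl10l stands in for Rpl10 during meiosis, and Rpl3l is known from skeletal muscle and heart. Their nearest peaks lay at least 3084 bp away. The parent genes had a peak in each library, with ranges of 737 to 1144 bp for Rpl10, 487 to 830 bp for Rpl39 and 282 to 653 bp for Rpl3. Rps27l, a widely used paralog that p53 induces, had peaks of 593 to 920 bp in each library, as its parent Rps27 did (517 to 631 bp). Rps4l is a pseudogene in this annotation, as are 2 other symbols of the family, and was not counted.

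The other 2 genes without a peak, Rps14 and Rps25, are used in all cells. For Rps14 the start of the principal transcript lies 29141 bp into the annotated gene, and the nearest peaks ended 1282 to 1466 bp from it, with widths of 846 bp at Day 0, 753, 681, 741, 866 and 737 bp on the following days and 413 bp in ESCs. When any start of a coding transcript was allowed, Rps14 had a peak in 7 of 7 libraries. For Rps25, a small-subunit protein needed by several viral internal ribosome entry sites, no peak was listed within 10631 bp of the start in any library. Its window also holds the start of Trappc4. The RefSeq start of Rps25, 575 bp away, was inside no peak either. Neither gene's count says that its promoter was closed.

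Ribosomal protein genes whose names fall outside the spelling used here behaved alike. Rpsa, Rps3a1, Rpl36al, Rpl7l1, Rpl22l1 and Fau had a peak in 7 of 7 libraries each. Rpsa, the laminin-receptor protein of the small subunit, had 724 bp at Day 0 and 531 bp in ESCs, and Rps3a1 had 735 and 450 bp. Fau, made as a fusion with a ubiquitin-like protein, had 594 bp at Day 0 and 206 bp in ESCs. Rpl7l1 had 828 bp at Day 0 and 220 bp in ESCs, and Rpl36al had 659 and 236 bp. Each of these 6 genes, too, had a narrower peak in ESCs than at Day 0.

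The peaks lay over the annotated start. The start base itself was inside a peak for 71 of the 79 genes at Day 0, against 45.4% of all protein-coding genes, and for 64 on Day 1 against 40.4%. It was inside for 58 on Day 2 against 36%, for 66 on Day 3 against 41.6% and for 66 on Day 6 against 43.1%. On Day 9 it was inside for 64 against 39.2%, and in ESCs for 45 against 34.3%. As shares of the 79 genes these counts run from 57% in ESCs to 89.9% at Day 0. These shares also carry the difference in having a peak at all. Among genes with a peak, the start was inside for 95.9% of the family against 82.3% of all genes at Day 0. The same shares were 80.6 against 75.8% on Day 2 and 75 against 74.2% in ESCs. The centre of the widest peak stood slightly upstream of the start, with medians between -33 bp (Day 9) and -7.75 bp (Day 6). Over all protein-coding genes with a peak the medians were between -27 bp (Day 9) and -15.5 bp (ESCs). Of the small-subunit genes with a peak, the start was inside for each at Day 0 and on Days 1, 3 and 6. On the same days it was inside for 81.8 to 93.5% of the large-subunit genes with a peak. Over all protein-coding genes with a peak the share was 78.7 to 82.3% on these days. Part of the subunit difference rests on the start used, as for the large-subunit genes Rpl35 and Rpl35a below.

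**Figure D3:**
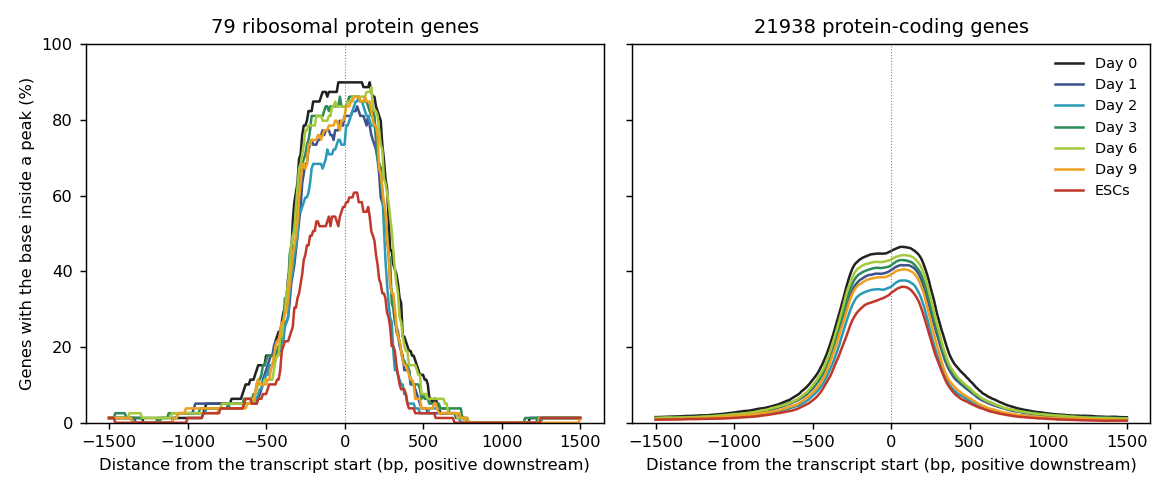
Percent of genes with a given base inside a peak (vertical axis) by distance from the transcript start in bp (horizontal axis, positive downstream), for the 79 ribosomal protein genes (left) and 21938 protein-coding genes (right), 1 line per library. At the start itself the family stands at 89.9% at Day 0 and 57% in ESCs and all genes at 45.4 and 34.3%, and both fall off within about 500 bp on either side.

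Relative to its own highest value in each library, coverage was then followed outward from the start. It stayed over 50% of its highest value from -330 to 300 bp around the start at Day 0 and from -320 to 260 bp in ESCs. Over all protein-coding genes this stretch ran from -370 to 330 bp at Day 0 and from -330 to 280 bp in ESCs. A shorter stretch in ESCs was thus not particular to the family. The highest value of the family in ESCs was 60.8% of the genes, and in the MEF-derived libraries 83.5 to 89.9%. At 500 bp upstream the coverage of the family was 17.7% at Day 0 and 7.59% in ESCs, against 11.3 and 5.93% over all protein-coding genes.

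In 6 genes the start was outside the peak in at least 4 of the libraries with a peak. For Rpl35 it was so in 7, with a peak centre 416 to 458 bp downstream and a nearly constant width of 530 to 587 bp, and the RefSeq start, 493 bp from the one used, was inside the peak in 7 of 7 libraries. Likewise the peaks of Rpl35a lay upstream of the start used, near that of Iqcg, and its RefSeq starts were inside a peak in 7 of 7. For these 2 genes the choice of start decides the position. Rpl10, which joins the large subunit last and admits it to translation, had its peak centre between -708 bp (Day 1) and -395 bp (Day 0) from the start, which was inside the peak at Day 0 alone. Its widths were 1015 bp at Day 0, 969, 954, 1144, 963 and 869 bp on the following days and 737 bp in ESCs. The RefSeq start of Rpl10, 44 bp away, was inside in 2 libraries. For Rpl4 the start was inside on Day 6 alone, and the ESC peak, at the 200 bp minimum, ended 593 bp from it, the farthest of any counted peak. That window also holds the start of Zwilch, so the peak cannot be given to Rpl4 alone. Rpl24, of a bridge between the subunits, had peaks that began downstream of the start in 5 libraries, and Rpl8 had its start outside the peak in 4.

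Of the 79 windows, 11 held the start of another protein-coding gene, among them those of Rpl4 with Zwilch, Rps18 with Vps52, Rps28 with Ndufa7 and Rpl7a with Med22. In such a window a peak can belong to either gene. In the other 68 windows, 64 had a peak at Day 0 and 51 in ESCs, and 50 had one in each library.

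To place the family among other gene groups, lists of related housekeeping genes were counted alike. For nuclear genes of mitochondrial ribosomal proteins, which serve a separate ribosome, 59 of 78 (75.6%) had a peak in each library. The counts were 31 of 40 proteasome subunits (77.5%), 43 of 55 translation initiation factors (78.2%) and 23 of 29 ribosome biogenesis genes (79.3%). Of 19 other genes with TOP mRNAs, Fau and Rpsa included, 16 had one in each library (84.2%, interval 60.4 to 96.6%), and Eef2, the elongation factor that moves the ribosome along, was without a peak in any. The interval of the ribosomal protein genes, 63.6 to 83.8%, holds each of these shares except that of the TOP list, whose own interval holds 74.7%. Protein-coding starts rich in CpG, defined by a CpG ratio of at least 0.6 and at least 50% GC, had a peak in each library in 70.4% of 9650 cases.

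Absences in ESCs were counted for the same lists. Among genes with a Day 0 peak, 13 of 76 mitochondrial ribosomal protein genes had none in ESCs (17.1%). It was 7 of 51 initiation factors (13.7%), 4 of 27 biogenesis genes (14.8%), 2 of 18 TOP genes (11.1%) and 2 of 35 proteasome subunits (5.71%). For CpG-rich starts it was 12.6%. The interval of 10.7 to 29.7% for the ribosomal protein genes holds each of these shares except that of the proteasome subunits, whose own interval (0.7 to 19.2%) holds 18.9%. Where both had a peak, that of the ESCs was the narrower for 58 of 63 mitochondrial ribosomal protein genes (92.1%), 41 of 44 initiation factors (93.2%) and 16 of 16 TOP genes. The TOP list had a median difference of -262 bp and the initiation factors one of -248 bp, beside the -232 bp of the ribosomal protein genes. It was -163 bp for proteasome subunits, -150 bp for mitochondrial ribosomal protein genes and -139 bp for biogenesis genes, beside the -162 bp of all genes.

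Pseudogenes of the family, as a rule copies of the mRNA that landed elsewhere without the promoter, seldom had a peak. Of 300 with a -ps symbol, 12 had a peak near the start at Day 0 (4%) and 7 in ESCs (2.33%), and 276 had none in any library. Rpl29-ps2, annotated as transcribed, was the single one with a peak in 7 libraries. How reads that match several near-identical copies were treated is not given in the sources used here, so these counts are uncertain.

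**Figure D4:**
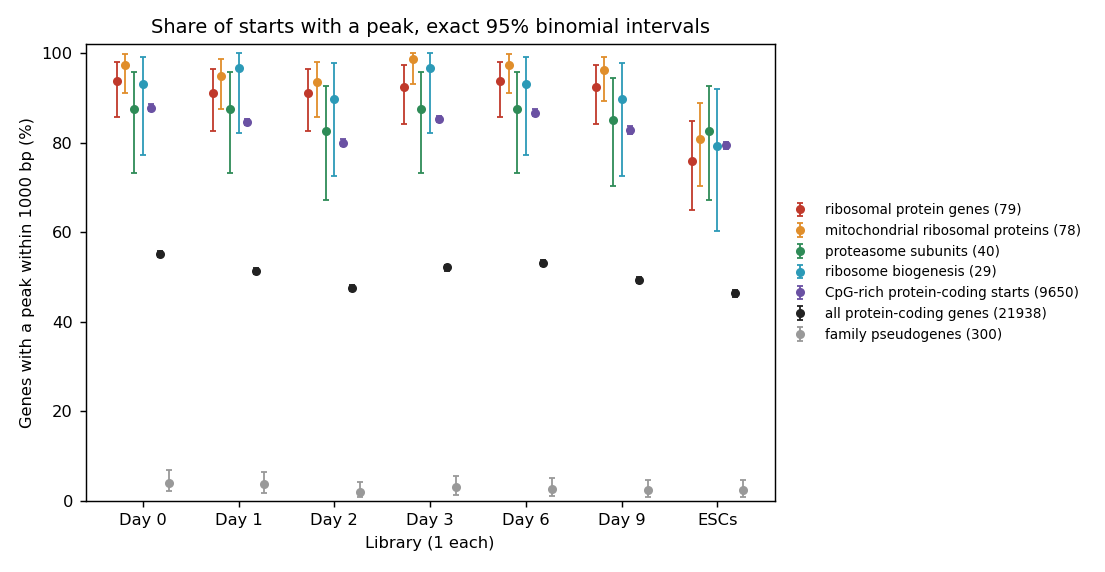
Percent of genes with a peak within 1000 bp of the start in each library (points) with exact 95% binomial intervals (bars), for the ribosomal protein genes and 6 comparison groups, with the number of genes of each in parentheses. The ribosomal protein genes stand at 91.1 to 93.7% in the MEF-derived libraries, among the other housekeeping lists. In ESCs they stand at 75.9%, below the 79.3 to 82.5% of those lists, which their interval of 65 to 84.9% holds. All protein-coding genes stand at 46.3 to 55.1% and the pseudogenes at 2 to 4%.

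The sequence from 250 bp before to 50 bp after the start was then described for the family beside all protein-coding starts. CpG-rich starts made up 58 of 79 (73.4%) against 44%, at a median GC share of 55.3% against 56%. The ETS core CCGGAA was present in 35 of them (44.3%) against 18.2% of all starts and 30.8% of CpG-rich starts. The core ATGGCG, which is part of the YY1 site, was present in 20 (25.3%) against 10.8 and 17.6%. Both shares were thus higher in the family than in either set. SP1 boxes (GGGCGG) were found in 38 (48.1%), near the 45.5% of all starts and below the 76.9% of CpG-rich ones.

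The other motifs were less frequent. The NRF1 core GCGCATGC was found in 4 members (5.06%) against 3.73% of all starts and 6.24% of CpG-rich ones. The E-box CACGTG was found in 10 (12.7%) against 7.74 and 11.6%. The TATA box TATAAA was found in 8 (10.1%) against 12.6 and 4.68%. Each motif was searched as an exact match on both strands, and no motif contains another. ATGGCG also includes the start codon with the base after it in many mRNAs, so that some of its matches may be coding sequence, and a match is no evidence of binding.

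TOP-type starts were more frequent in the family too. A C at the start that opened a run of at least 5 pyrimidines occurred in 9 members (11.4%) against 2.25% of all starts and 1.97% of CpG-rich ones. A run of 8 or more that touched a base within 5 bp of the start occurred in 23 (29.1%) against 9.4 and 7.99%. The start base was a C in 23 members (29.1% against 17.5%) and a G in 32 (40.5% against 39.2%). Annotated starts can lie some bases from the true one, and 18 members start apart from the 5′ end of their gene. At the 5′ ends the run of 8 occurred in 20 members (25.3%) and the ETS core in 31 (39.2%).

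**Figure D5:**
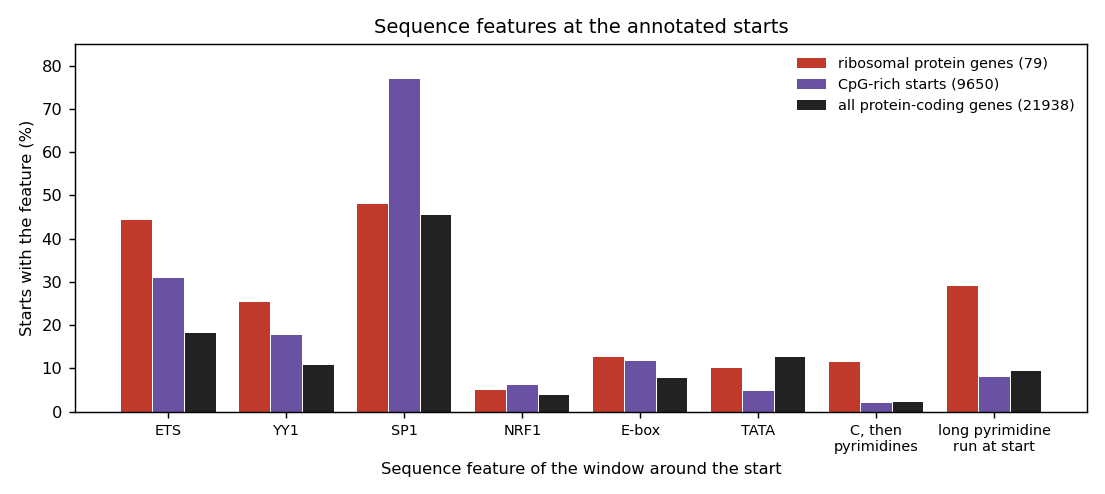
Percent of starts (vertical axis) with each sequence feature (horizontal axis) for the 79 ribosomal protein genes, 9650 CpG-rich protein-coding starts and all 21938 protein-coding starts, where the motifs were searched from 250 bp before to 50 bp after the start. ETS and YY1 matches and both kinds of pyrimidine start are the more frequent in the ribosomal protein genes, at 44.3, 25.3, 11.4 and 29.1%, and SP1 matches are the most frequent in the CpG-rich set, at 76.9%.

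Sequence and peak pattern were set side by side for the 59 genes with a peak in each library and the 14 with a Day 0 peak and no ESC peak. CpG-rich starts made up 47 of the 59 (79.7%) and 7 of the 14 (50%). Over all protein-coding genes they made up 6792 of the 8559 with a peak in each library. They made up 1071 of the 2517 with a Day 0 peak and no ESC peak, so the order was the same. The motifs below were not split in this way over all genes. SP1 boxes were present in 31 (52.5%) and 4 (28.6%), ETS cores in 25 (42.4%) and 9 (64.3%), and NRF1 cores in 1 (1.69%) and 3 (21.4%). A TATA box was present in 7 (11.9%) and 0. The YY1 core differed little, with 15 (25.4%) and 3 (21.4%), and the E-box was present in 9 (15.3%) and 1 (7.14%). These are counts over small groups chosen by their peaks, so they are given without a test.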

How the data were processed

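ATAC-seq reads were processed by the authors with Trimmomatic (trimming), Bowtie2 (alignment to mm10) and Picard (duplicates), followed by downsampling to 1 depth and MACS2 peak calling in each library at a q-value cut-off. The deposited lists hold 3 columns, peak coordinates alone, and neither scores nor reads. Starts were those of the APPRIS principal transcript in GENCODE M21, with ties broken by transcript support level and length. Peaks overlapping a window of 1000 bp on either side by at least 1 bp were counted with Python 3.11.15, numpy 2.4.6, scipy 1.17.1 and pysam 0.24.0, and figures were drawn with matplotlib 3.10.9. The counts were checked against BEDTools 2.31.1 (0 windows differed) and tested on simulated data with planted peaks. Positions count from 1. RefSeq starts of the same build were at hand for 59 of the 79 genes.

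The genes named are those with a peak in none or only some of the libraries, the 5 widest and 5 narrowest, those with several peaks or with the start outside the peak in at least 4 libraries, tissue paralogs and their parents, genes outside the spelling, and genes of known roles. Members and lists were chosen with earlier results of these data known. The biogenesis gene Nog1 was not found by symbol, which left 29 of 30. Some genes that this rule selects are not reported here.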

Additional observations from a re-analysis of the deposited data

How the results depend on the processing

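The counts per library and in each library stayed within 1.5 times under each alternative run, among them windows of 500 and 100 bp, the 5′ end of the gene, any coding start and, added after the data were seen, RefSeq starts. With peaks of at least 300 bp they fell to 47 genes in ESCs and 43 in each library. Counts of genes with a Day 0 peak and none in another library rest on few genes and moved more. With peaks of at least 300 bp they were 7, 10, 4, 2, 8 and 26 on Days 1, 2, 3, 6, 9 and in ESCs, and 20 from Day 9 to ESCs. From the gene 5′ ends they were 4, 3, 1 and 3 on Days 1, 3, 6 and 9, with a window of 100 bp 2 on Day 6 and 2 on Day 9, and when each list was limited to its 27074 widest peaks 5 on Day 1 and 2 on Day 3. Fewer peaks enter under both peak filters. Windows with more than 1 peak fell to 0 with peaks of at least 300 bp, except for 1 on Day 2, and to 0 after merging within 300 bp, except for 1 at Day 0. With the widest peaks they were 3 on Days 2 and 9 and 0 at Day 0 and on Days 1, 3 and 6. Among single genes, Rps14 went from 0 libraries to 7 with any coding start and to 2 with the gene 5′ end. Rpl19 went from 2 to 0 with the widest peaks, and Rpl10 from 7 to 2 within 100 bp. With peaks of at least 300 bp, Rpl36 went from 5 to 2. Of the genes that lacked the ESC peak alone, Rpl8 then went from 6 to 1, and Rpl23a, Rpl32 and Rps26 from 6 to 3 each. With the widest peaks, Rpl8 fell to 2 and Rpl32 and Rps26 to 3 each. No library could be left out of its own group, and no paired analysis was possible because each group is 1 library and no test was made. The unknown depth limits every absence to no called peak.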
